A study of Oryza sativa with 4 samples.

Results

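Protein phosphatases 2C (PP2Cs) of rice were followed in leaves of *OsABA8ox3* RNAi-9 and WT seedlings before and after dehydration with polyethylene glycol (PEG). The genes were those whose symbol or synonym is PP2C with a number and which had at least 1 probe set of their own on the Affymetrix Rice Genome Array. This gave 55 of the 17905 genes that could be paired with probe sets. The gene table holds 60 such names, and PP2C41, PP2C49, PP2C50, PP2C65 and PP2C77 had no probe set paired with them. Of the 55 genes, 8 belong to clade A, which has 10 named genes in all, and 47 lie outside it.

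RNAi-9 is a single transgenic line of cultivar ZH11 (Zhonghua 11) in which *OsABA8ox3*, a gene for an enzyme that breaks down abscisic acid (ABA), was targeted by RNA interference. WT was ZH11, and the study's methods describe its WT as plants transformed with the empty vector. The 4 samples were leaves of RNAi-9 seedlings after 2 h of 20% PEG, of RNAi-9 seedlings at 0 h without PEG, of WT seedlings after 2 h of 20% PEG and of WT seedlings at 0 h without PEG. Each was measured on 1 array, so no value has a replicate check or a p-value, and precision is limited by how few arrays there are. As every 2 h sample had received PEG, PEG and 2 h of elapsed time cannot be told apart. *OsABA8ox3* itself was not paired with a probe set, so its silencing was not checked here.

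PP2Cs are metal-dependent enzymes that remove phosphate from serine and threonine residues. In plants they form a large family, and the clade A members are known as the brake of ABA signalling. Without ABA they hold SnRK2 kinases (called SAPK in rice) dephosphorylated and silent. When ABA is present, its receptors of the PYL/RCAR family bind the hormone and block the clade A phosphatases, and the freed kinases phosphorylate bZIP transcription factors that switch on drought genes. Clade A genes are themselves known as targets of ABA in several plants, which is described as a negative feedback. Members of the other clades act in different pathways, among them MAP kinase and immune signalling.

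Signals are deposited as log2 values, and signals under 6 were raised to a floor of 6 because low array signals scatter widely. A gene is said to rise or fall where its log2 difference was over 1, which is 2-fold. Probe sets differ in brightness for reasons other than transcript number, so levels were compared between arrays and not between genes. The arrays were alike in overall signal, with medians of 5.32 to 5.45 and 42.4% to 43.4% of 57258 probe sets at 6 or more. Of 7 genes matched to the leaf list, 6 were above the floor on every array, among them CAB2R, RCA and PSAH at 14.38 to 15.48, and RBCS1 was at the floor. The entry GLU1 of that list matched an enzyme gene of the same name that is not a leaf marker. Of 6 seed storage genes, 4 were at the floor on all arrays and GLUA-2 had 8.05 to 8.27. Of 5 root genes, LSI2 was at the floor throughout and YSL15 had at most 6.09, while LSI1, NAAT1 and IRT1 gave signal. The summed linear signal of the root list was 1003 in RNAi-9 and 1328 in WT at 2 h of PEG, against 3006 in RNAi-9 and 2398 in WT at 0 h. Its part in the changes below was not tested, and fewer cells of a type cannot be told apart from less RNA per cell.

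After PEG, 6 of the 8 clade A genes rose over 8-fold in both genotypes, and no PP2C gene outside clade A did so. They were PP2C68, PP2C30, PP2C08, PP2C59, PP2C09 and PP2C06. Over all 17905 genes, 162 genes or 0.905% rose over 8-fold in both genotypes. The median log2 change of clade A was 4.40 in RNAi-9 and 4.23 in WT. For the PP2C genes outside clade A it was −0.07 in RNAi-9 and 0.24 in WT, and for all genes it was −0.01 in RNAi-9 and 0.00 in WT. Many genes at the floor have a change of 0. For the 43 PP2C genes outside clade A above the floor on all arrays it was −0.11 in RNAi-9 and 0.25 in WT. For all 12978 genes above the floor on all arrays it was −0.23 in RNAi-9 and −0.24 in WT. The choice of clade A was made with earlier results of these arrays known, so these counts are a description.

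**Figure D1:**
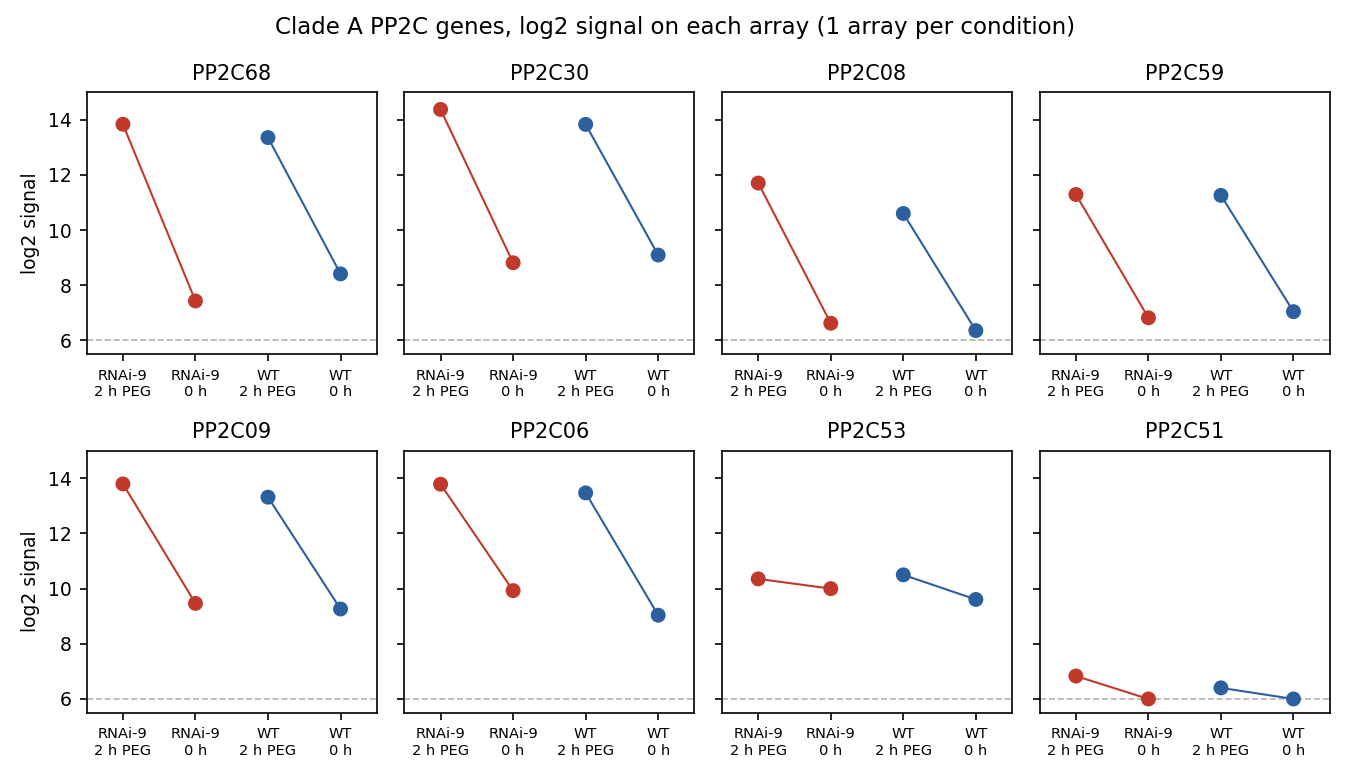
Log2 signal (floor of 6) of the 8 measured clade A genes on each of the 4 arrays, with 1 point per array and the order RNAi-9 at 2 h of PEG, RNAi-9 at 0 h, WT at 2 h of PEG and WT at 0 h in each panel. PP2C68, PP2C30, PP2C08, PP2C59, PP2C09 and PP2C06 lie at 10.60 to 14.37 at 2 h and at 6.36 to 9.92 at 0 h, whereas PP2C53 and PP2C51 move little.

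PP2C68 (gene ID 4346736), also named OsSIPP2C1 for its induction by stress, had the largest change of the family. Its log2 signal was 13.83 in RNAi-9 and 13.35 in WT at 2 h of PEG, against 7.43 in RNAi-9 and 8.41 in WT at 0 h. Both 2 h arrays thus lay far above both 0 h arrays. The rise was 84.5-fold in RNAi-9 and 30.7-fold in WT. By its change averaged over the genotypes it ranked 13 of the 17905 genes.

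PP2C30 (gene ID 4332374), whose protein is known to bind the receptor PYL/RCAR5 and the kinase SAPK2, came next. Its signal was 14.37 in RNAi-9 and 13.83 in WT at 2 h, against 8.81 in RNAi-9 and 9.09 in WT at 0 h. That is a rise of 47.0-fold in RNAi-9 and 26.6-fold in WT, with rank 25 by the mean change. As with PP2C68, the lowest of the 4 arrays was RNAi-9 at 0 h and the highest was RNAi-9 at 2 h.

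PP2C08 (gene ID 4324182) was near the floor before the treatment. Its signal was 11.70 in RNAi-9 and 10.60 in WT at 2 h, against 6.62 in RNAi-9 and 6.36 in WT at 0 h. It rose 33.8-fold in RNAi-9 and 18.9-fold in WT, and because its 0 h signals lay so close to the floor these folds depend on where the floor is set. With a floor of 8 the log2 change of PP2C08 in WT was 2.60, which is under 8-fold.

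PP2C59 (gene ID 4341949) had nearly the same signals in both genotypes. Its signal was 11.29 in RNAi-9 and 11.26 in WT at 2 h, against 6.82 in RNAi-9 and 7.04 in WT at 0 h. The rise was 22.1-fold in RNAi-9 and 18.5-fold in WT, and the genotypes differed by 0.03 at 2 h.

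PP2C09 (gene ID 4327465), known for balancing growth against drought tolerance in rice, started from clear signal at 0 h. Its signal was 13.79 in RNAi-9 and 13.31 in WT at 2 h, against 9.46 in RNAi-9 and 9.26 in WT at 0 h. It rose 20.1-fold in RNAi-9 and 16.6-fold in WT.

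PP2C06 (gene ID 4324201), also named ABIL1 after the Arabidopsis ABI phosphatases, was the only one of the 6 whose rise was smaller in RNAi-9. Its signal was 13.78 in RNAi-9 and 13.46 in WT at 2 h, against 9.92 in RNAi-9 and 9.03 in WT at 0 h. The rise was 14.5-fold in RNAi-9 and 21.6-fold in WT. The arrays of the genotypes lay further apart at 0 h, by 0.89, than at 2 h, by 0.31.

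The other two measured clade A genes stayed below the 2-fold threshold with the floor, and PP2C51 passed it without. PP2C53 (gene ID 4339797), or ABIL2, a negative regulator of ABA responses, had a signal of 10.35 in RNAi-9 and 10.50 in WT at 2 h, against 10.00 in RNAi-9 and 9.60 in WT at 0 h. Its log2 change was 0.35 in RNAi-9 and 0.89 in WT, so all 4 arrays stayed within a range below 2-fold. PP2C51 (gene ID 4339671), known for promoting seed germination, was hardly detected in these leaves. One of its probe sets had 7.66 in RNAi-9 and 6.80 in WT at 2 h and was at the floor in both genotypes at 0 h, and the other was at the floor on all 4 arrays. Averaged over both probe sets, PP2C51 changed by 0.83 in RNAi-9 and 0.40 in WT on the floored log2 scale. Without the floor PP2C51 rose in both genotypes, by 1.89 in RNAi-9 and 3.27 in WT, though 3 of its 4 signals were under 6, and where 32 was added to each linear signal it rose by 1.22 in RNAi-9 and 1.14 in WT.

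Over the whole family, 12 of 55 genes rose in RNAi-9, where 9.34% of all genes did, and 15 of 55 rose in WT, where 10.0% of all genes did. The 12 of RNAi-9 also rose in WT, and 7.19% of all genes rose in both genotypes. Clade A accounts for 6 of them. The remaining 6 are 12.8% of the 47 genes outside clade A, against the 7.19% of all genes. All 6 are among the 43 genes outside clade A that were above the floor on all arrays. Of all 12978 genes above the floor on all arrays, 8.24% rose in both genotypes. Both 2 h arrays lay above both 0 h arrays for 8 of 8 clade A genes and for 19 of 47 others, against 20.5% of all genes and 23.8% of those above the floor. Both 2 h arrays lay below both 0 h arrays for 0 of 8 clade A genes and for 17 of 47 others, against 36.6% of all genes and 47.0% of those above the floor. All 17 are among the 43 genes outside clade A above the floor on all arrays. The genes with both 2 h arrays higher include PP2C69 and PP2C51, which were not above the floor on all arrays.

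**Figure D2:**
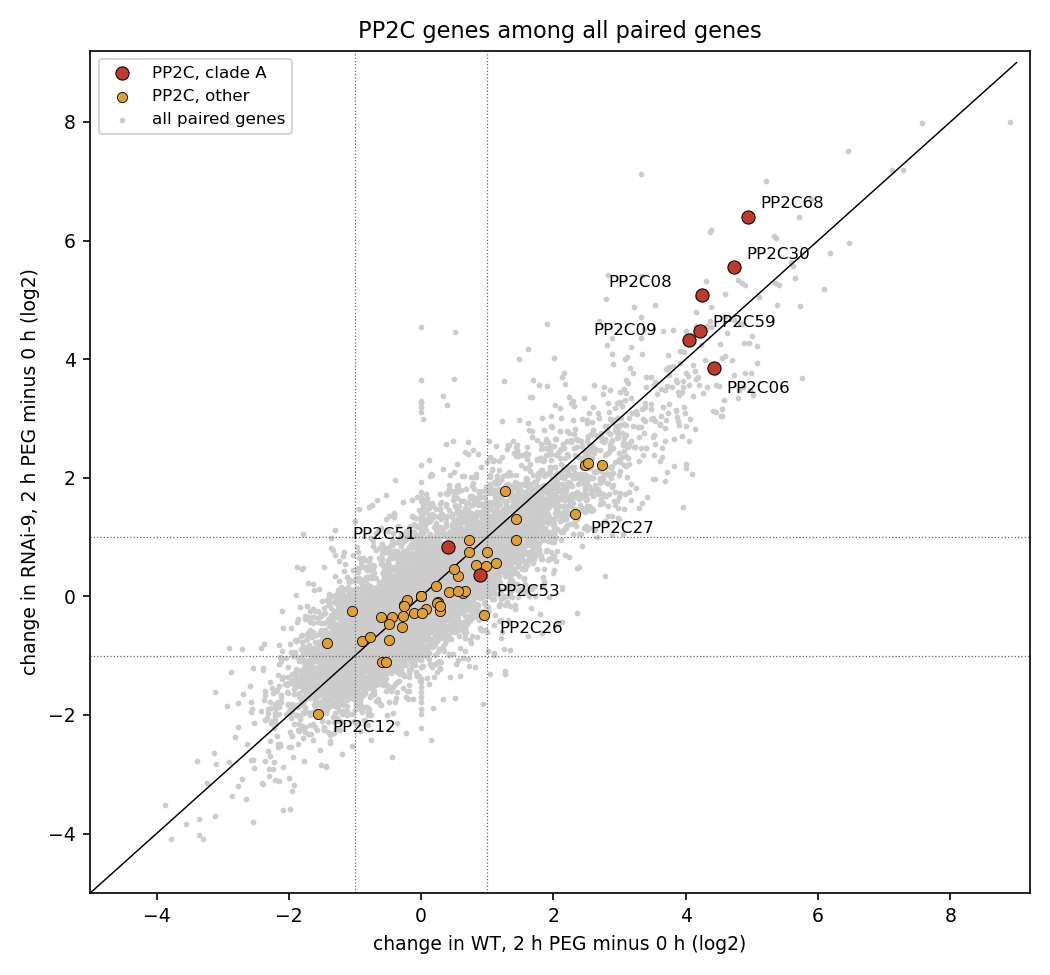
Log2 change after PEG in RNAi-9 (vertical) against that in WT (horizontal), each 2 h array minus its own 0 h array, with red points for the 8 clade A genes, orange points for the other 47 PP2C genes, grey points for all paired genes, dotted lines at 2-fold and a diagonal where both changes are equal. The 6 strongly rising clade A genes lie at 3.85 to 6.40 in RNAi-9 and 4.05 to 4.94 in WT, apart from every other PP2C gene, none of which exceeds 2.24 in RNAi-9 or 2.74 in WT.

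The 6 genes outside clade A that rose in both genotypes were PP2C02, PP2C34, PP2C32, PP2C27, PP2C61 and PP2C72. Their median log2 change was 1.99 in RNAi-9 and 2.40 in WT, and each had clear signal at 0 h. PP2C02 had 12.81 in RNAi-9 and 12.78 in WT at 2 h, against 10.60 in RNAi-9 and 10.05 in WT at 0 h. Its rise was 4.64-fold in RNAi-9 and 6.67-fold in WT, the highest mean change outside clade A. PP2C34, first described in rice as the benzothiadiazole-induced phosphatase BIPP2C2, had 12.91 in RNAi-9 and 12.98 in WT at 2 h, against 10.67 in RNAi-9 and 10.45 in WT at 0 h. It rose 4.74-fold in RNAi-9 and 5.75-fold in WT.

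PP2C32 had 12.54 in RNAi-9 and 12.30 in WT at 2 h, against 10.33 in RNAi-9 and 9.83 in WT at 0 h, a rise of 4.63-fold in RNAi-9 and 5.55-fold in WT. PP2C27, which is known to act on a MAP kinase pathway in the cold response, had 11.54 in RNAi-9 and 11.70 in WT at 2 h, against 10.15 in RNAi-9 and 9.37 in WT at 0 h. Its rise was 2.61-fold in RNAi-9 and 5.03-fold in WT, and the smaller value in RNAi-9 goes with the higher 0 h signal there. PP2C61 had 11.38 in RNAi-9 and 11.29 in WT at 2 h, against 9.62 in RNAi-9 and 10.02 in WT at 0 h. It was the only one of the 6 with the larger log2 change in RNAi-9, at 1.77 in RNAi-9 and 1.27 in WT. PP2C72 had 11.88 in RNAi-9 and 12.01 in WT at 2 h, against 10.57 in RNAi-9 and 10.58 in WT at 0 h, which made the change nearly equal at 1.30 in RNAi-9 and 1.43 in WT.

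PP2C44, PP2C35 and PP2C47 passed 2-fold in WT and not in RNAi-9, which does not show that the genotypes differed. PP2C35, or XB15, dampens the immune receptor kinase XA21, and its log2 change was 0.56 in RNAi-9 and 1.14 in WT. PP2C44 changed by 0.95 in RNAi-9 and 1.43 in WT. PP2C47 lay just past the threshold in WT, with 1.68-fold in RNAi-9 and 2.00-fold in WT, and in RNAi-9 PP2C44 and PP2C78 lay just below it, at 0.95 each. PP2C78 had 8.79 in RNAi-9 and 9.14 in WT at 2 h, against 7.84 in RNAi-9 and 8.42 in WT at 0 h, and its change in WT was 0.72.

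Fewer PP2C genes fell. Over 2-fold lower signals after PEG were found for 3 genes in RNAi-9, where 9.29% of all genes fell, for 3 genes in WT, where 9.47% fell, and for 1 gene in both, where 5.36% fell. None of them belongs to clade A. PP2C12 was the gene that fell in both. It had 10.69 in RNAi-9 and 10.33 in WT at 2 h, against 12.67 in RNAi-9 and 11.89 in WT at 0 h, so it was 3.93-fold lower in RNAi-9 and 2.95-fold lower in WT. The only probe set of PP2C12 is of a kind shared between transcripts.

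In RNAi-9, PP2C28 and PP2C21 also fell. PP2C28 had 11.89 in RNAi-9 and 11.82 in WT at 2 h, against 13.00 in RNAi-9 and 12.35 in WT at 0 h, which is a change of −1.10 in RNAi-9 and −0.53 in WT. PP2C21 had 8.15 in RNAi-9 and 7.72 in WT at 2 h, against 9.25 in RNAi-9 and 8.31 in WT at 0 h, which is a change of −1.10 in RNAi-9 and −0.59 in WT. For both genes the highest of the 4 arrays was RNAi-9 at 0 h, and the 2 h arrays lay below both 0 h arrays. Each of these 2 falls missed 2-fold when the arrays were scaled to the median of the brighter probe sets. The fall of PP2C21 also missed it with quantile normalization, at −0.95. The only probe set of PP2C21 is, like that of PP2C12, of a kind shared between transcripts.

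In WT, PP2C71 and PP2C67 fell besides PP2C12. PP2C71 had 9.49 in RNAi-9 and 9.24 in WT at 2 h, against 10.28 in RNAi-9 and 10.66 in WT at 0 h. Its 2 probe sets disagreed in RNAi-9, where one changed by 0.00 and the other by −1.58, while in WT they changed by −1.40 and −1.44. PP2C67 had 8.38 in RNAi-9 and 8.32 in WT at 2 h, against 8.63 in RNAi-9 and 9.37 in WT at 0 h. Its change of −1.05 in WT lay just past the threshold, and it was −0.25 in RNAi-9. The fall of PP2C67 in WT missed 2-fold under 4 alternatives, with −0.98 for the offset, −0.94 for scaling to the brighter probe sets, −0.86 for quantile normalization and −0.94 for scaling to the hybridization controls. PP2C05 and PP2C16 were lower on both 2 h arrays without reaching 2-fold, with changes of −0.75 in RNAi-9 and −0.89 in WT for PP2C05 and of −0.69 in RNAi-9 and −0.77 in WT for PP2C16.

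**Figure D3:**
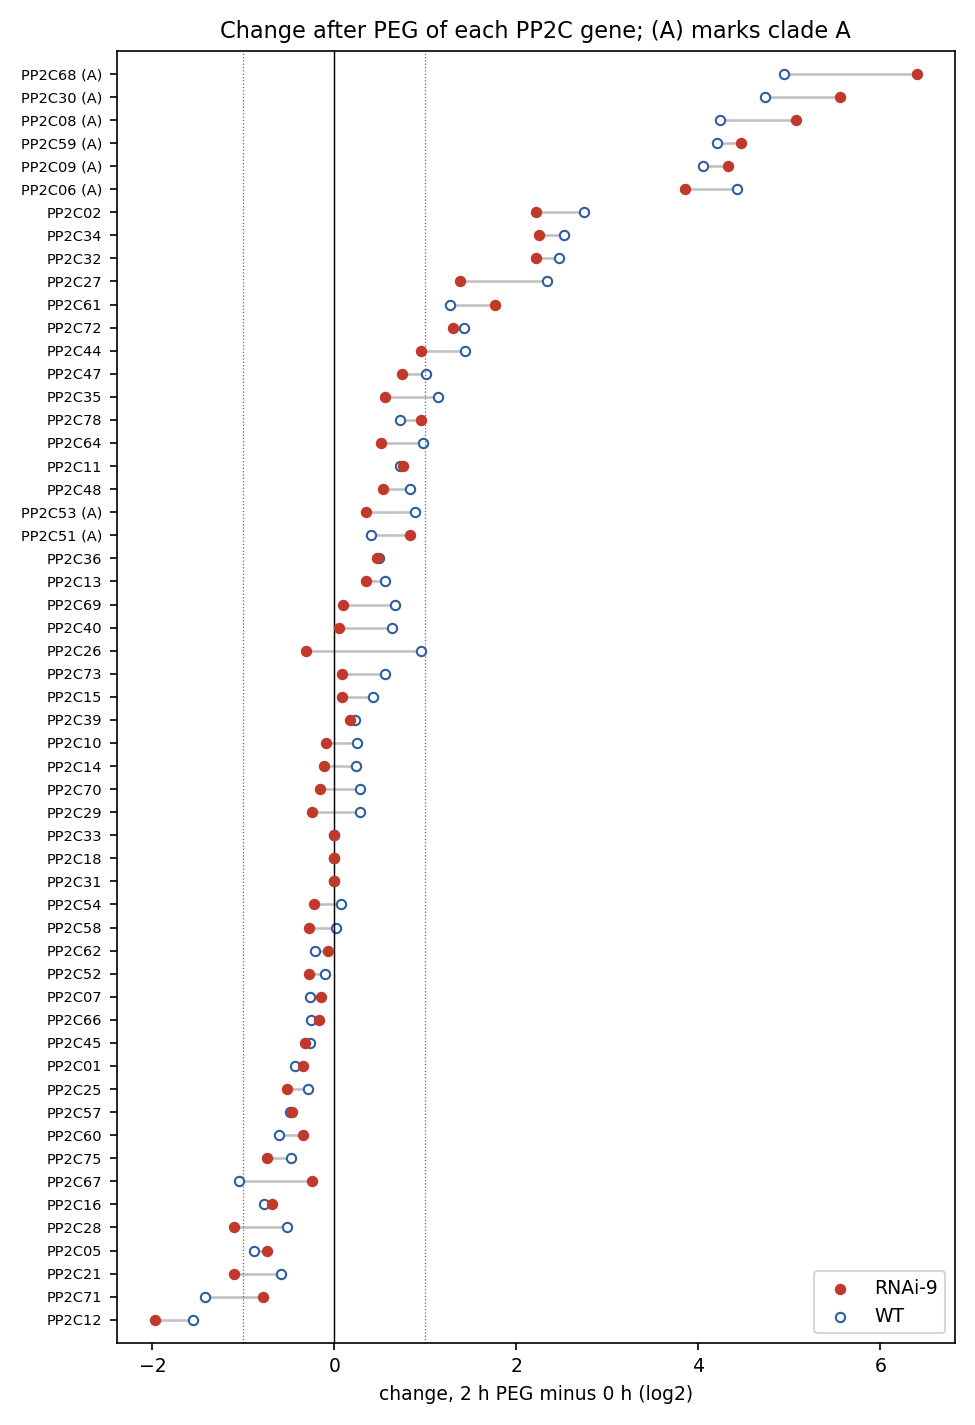
Log2 change after PEG of each of the 55 PP2C genes, ordered by the mean over both genotypes, with a filled point for RNAi-9 and an open point for WT per gene and dotted lines at 2-fold. From PP2C68 at the high end, with 6.40 in RNAi-9 and 4.94 in WT, the values run to PP2C12 at the low end, with −1.98 in RNAi-9 and −1.56 in WT, and most genes lie between the dotted lines.

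Most of the rest of the family moved little, while PP2C44 and PP2C47 passed 2-fold in WT. PP2C10 and PP2C01 had strong signal on every array and changed by −0.09 in RNAi-9 and 0.25 in WT for PP2C10, and by −0.34 in RNAi-9 and −0.44 in WT for PP2C01. Of all 55 genes, 50 were above the floor on all 4 arrays. PP2C18, PP2C31 and PP2C33 were at the floor on all of them, so that no change could be measured, and PP2C51 and PP2C69 were above it on some arrays only. PP2C69 had 6.09 in RNAi-9 and 6.66 in WT at 2 h and was at the floor in both genotypes at 0 h. The 24 genes that the rule for naming genes did not pick, PP2C44 and PP2C47 included, had changes of −0.74 to 0.95 in RNAi-9 and −0.49 to 1.43 in WT.

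A gene mean can hide a single probe set. The 55 genes had 72 probe sets, and 12 genes had more than 1, with 4 at most. For PP2C48, 1 of 3 probe sets had 12.09 in RNAi-9 and 11.89 in WT at 2 h, against 10.99 in RNAi-9 and 9.91 in WT at 0 h, a change of 1.10 in RNAi-9 and 1.98 in WT. The other probe sets of PP2C48 had at most 7.01 on any array. For PP2C75, 1 of 3 probe sets changed by −1.17 in RNAi-9 and −1.05 in WT, and the others by −0.53 to 0.08. These 2 genes were singled out after their values had been seen, and their means stayed below 2-fold.

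Between the genotypes the PP2C family differed far less than between the times. At 2 h of PEG, 1 gene differed over 2-fold between RNAi-9 and WT, where 4.40% of all genes did, and at 0 h none did, where 4.89% of all genes did. The gene was PP2C08, 2.15-fold higher in RNAi-9 at 2 h. No spread between replicates is known against which a difference of this size could be set. Both RNAi-9 arrays lay above both WT arrays for 2 of 55 genes, PP2C39 and PP2C58, where this held for 8.52% of all genes, and below them for 1 of 55, PP2C29, where this held for 8.67%.

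At 2 h, 7 of the 8 clade A genes had the higher signal in RNAi-9, with a median difference of 0.45, and PP2C53 was the exception at −0.15. Of all genes 38.8% had the higher signal in RNAi-9 at 2 h, and of those above the floor on all arrays 45.9% did. Among the 162 genes that rose over 8-fold in both genotypes, the strongly rising clade A genes included, 65.4% did, with a median of 0.22. The differences were 0.48 for PP2C68, 0.54 for PP2C30, 0.48 for PP2C09, 0.43 for PP2C51, 0.31 for PP2C06 and 0.03 for PP2C59. Outside clade A the median was 0.00, with 22 genes above 0 and 22 below. These signs depend on how the arrays are scaled: with the arrays set to their 9 bacterial and phage hybridization controls, the median of all genes moved by −0.43 at 2 h, and 5 of 8 clade A genes were higher in RNAi-9. Under that scaling PP2C08 differed by 0.68, and the signs of PP2C59 and PP2C06 turned to −0.39 for PP2C59 and −0.11 for PP2C06. The sign of PP2C59 also turned with the arrays scaled to the median of all probe sets. Such a scaling moves all genes of an array alike before the floor, so it sets where 0 lies and leaves the place of clade A among the other genes as it was.

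At 0 h clade A went both ways. PP2C68 was 1.97-fold higher in WT, just inside 2-fold at −0.98 in log2, and PP2C06 was 1.85-fold higher in RNAi-9 at 0.89. PP2C53 differed by 0.39, PP2C08 by 0.26, PP2C09 by 0.20, PP2C59 by −0.22, PP2C30 by −0.28 and PP2C51, at the floor in both, by 0.00. The median was 0.10 in clade A and 0.11 outside it. Outside clade A, PP2C21 at 0.94, PP2C27 at 0.78 and PP2C12 at 0.77 had the largest positive differences at 0 h, and PP2C67 at −0.74, PP2C78 at −0.59 and PP2C61 at −0.40 the largest negative ones. At 2 h the corresponding genes were PP2C11 at 0.69, PP2C60 at 0.54 and PP2C21 at 0.43, and PP2C26 at −0.77, PP2C29 at −0.76 and PP2C64 at −0.68. PP2C11 was higher in RNAi-9 at both times, by 0.66 at 0 h, though its RNAi-9 signal at 0 h, 10.59, lay below its WT signal at 2 h, 10.66.

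The change after PEG itself was compared as the change in RNAi-9 minus the change in WT. By the means over probe sets, PP2C68 alone had a difference of changes over 2-fold towards RNAi-9, as did 2.81% of all genes. PP2C26 alone had one over 2-fold towards WT, as did 2.45% of all genes. For PP2C68 the difference of changes was 1.46, made up of the higher 2 h signal and the lower 0 h signal in RNAi-9, and with a floor of 8 it was 0.89. PP2C26 had 8.46 in RNAi-9 and 9.23 in WT at 2 h, against 8.77 in RNAi-9 and 8.28 in WT at 0 h, so its difference of changes was −1.26.

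Within clade A the difference of changes was positive for 6 genes and negative for 2, with a median of 0.35, where it was positive for 7156 of all 17905 genes and for 45.7% of those above the floor on all arrays. The values were 0.84 for PP2C08, 0.82 for PP2C30, 0.43 for PP2C51, 0.28 for PP2C09, 0.26 for PP2C59, −0.54 for PP2C53 and −0.58 for PP2C06. With the deposited signals and no floor, PP2C51 turned to −1.37. Outside clade A 13 genes were above 0 and 31 below, with a median of −0.26. PP2C40, or OsPP65, which is known from osmotic and salt stress, was among the lowest at −0.58, as were PP2C27 at −0.95 and PP2C35 at −0.58. The highest outside clade A were PP2C67 at 0.80, PP2C71 at 0.63, PP2C61 at 0.50 and PP2C60 at 0.27. For PP2C71 the sign rested on the probe set chosen. The difference was −0.14 with the brighter probe set alone, which is of a kind shared between transcripts. Without shared probe sets it was 1.40, over 2-fold towards RNAi-9.

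Set beside other genes that rose as strongly, 5 of the 6 rising clade A genes had the larger change in RNAi-9, with a median of 0.55. Among the 162 genes that rose over 8-fold in both genotypes, which include these 6, 45.1% did, with a median of −0.11. Of the 6 rising genes outside clade A 1 did, with a median of −0.27, against 36.4% and −0.17 for the 1287 genes that rose over 2-fold in both. Scaling to the hybridization controls moved the median difference of changes of all genes by −0.37. With that shift, PP2C68 had 1.09, PP2C08 0.46 and PP2C30 0.45, while PP2C09 had −0.10 and PP2C59 −0.12. The count of clade A genes above the median of the genes over the floor on all arrays was 6 of 8 with and without the shift. This follows from the shift being common to all genes.

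**Figure D4:**
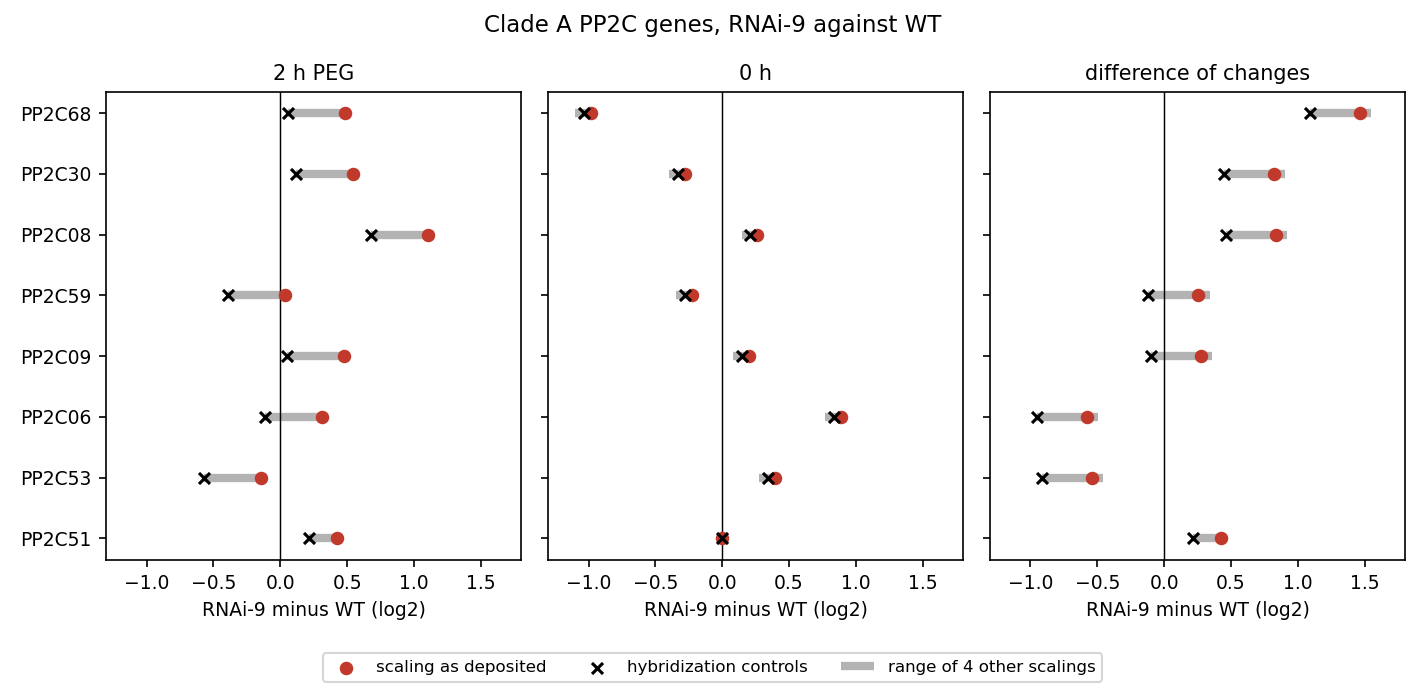
RNAi-9 minus WT in log2 for the 8 clade A genes at 2 h of PEG, at 0 h and for the difference of changes. Red points show the scaling as deposited and crosses the scaling to the hybridization controls. Grey bars show the range over 4 other scalings, the hybridization controls among them, and leave out the deposited scaling. PP2C68 stays above 0 for the difference of changes (1.46, or 1.09 with the hybridization controls) and PP2C06 and PP2C53 stay below 0 under each of these scalings, while PP2C09 and PP2C59 cross 0.

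The partners of clade A in ABA signalling were measured in part. Of the receptors, 1 gene, PYL11, was paired with a probe set, and it had 11.58 in RNAi-9 and 11.77 in WT at 2 h, against 12.43 in RNAi-9 and 12.09 in WT at 0 h. Its change was −0.84 in RNAi-9 and −0.32 in WT, below 2-fold. Of the 10 SAPK kinase genes, 5 rose in both genotypes, where 7.19% of all genes did, and none fell in both, where 5.36% did. The median log2 change of the 10 genes was 1.22 in RNAi-9 and 0.67 in WT. Which of these kinases clade A phosphatases act on was not tested. SAPK9 rose by 3.25 in RNAi-9 and 3.38 in WT, SAPK7 by 2.69 in RNAi-9 and 2.98 in WT, SAPK2 by 1.99 in RNAi-9 and 2.16 in WT, and SAPK6 by 1.53 in RNAi-9 and 1.94 in WT. Both paired genes for group A bZIP factors, the targets of these kinases, rose in both genotypes, against the same 7.19% of all genes. The change of bZIP23 was 3.13 in RNAi-9 and 3.85 in WT, and that of TRAB1 was 1.99 in RNAi-9 and 1.58 in WT.

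Among the genes for ABA breakdown, of the same family as *OsABA8ox3*, ABA8OX2 rose in both genotypes, where 7.19% of all genes did. ABA8OX1 fell in RNAi-9, where 9.29% of all genes did, and stayed below 2-fold in WT. ABA8OX2 had 9.07 in RNAi-9 and 8.31 in WT at 2 h, against 7.75 in RNAi-9 and 7.20 in WT at 0 h. Its change was 1.32 in RNAi-9 and 1.11 in WT. ABA8OX1 had 10.94 in RNAi-9 and 11.05 in WT at 2 h, against 12.91 in RNAi-9 and 11.83 in WT at 0 h, a change of −1.98 in RNAi-9 and −0.79 in WT. By real-time PCR the study found ABA8OX1 barely detectable in seedlings, and why the arrays gave signal was not tested. Whether transcripts similar to *OsABA8ox3* bind the probes of these genes was not tested.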

How the data were processed

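Total RNA of rice leaves was hybridized to Affymetrix Rice Genome Arrays, with 1 array for each of 4 conditions. The authors processed the signals with the GCOS software (MAS5 in the submitters' processing notes, version not given in the sources used here), scaled each array and deposited log2 signals. The target of the scaling is not given in the sources used here.

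Of the annotated probe sets, 22436 of 22531 were paired with 1 gene, named through a rice gene table of assembly ASM3414082v1, and 123 control probe sets were left out. Signals under 6 were raised to 6 and averaged over the probe sets of a gene. Changes were differences of log2 signals, called over 2-fold. With 1 array per condition no test was run. The computation used Python 3.11.15, pandas 2.3.3, numpy 2.4.6 and matplotlib 3.10.9, and was tested on simulated data.

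The PP2C genes, clade A, the pathway and marker lists and the tests were chosen with earlier results of these data known. Named were all clade A genes and, outside it, the 6 highest and 6 lowest mean changes, the 4 highest and 4 lowest differences of changes, the 3 highest and 3 lowest differences between genotypes at each time, and the 3 highest mean signals. From each pathway list up to 4 genes with the largest mean change were named. PP2C39, PP2C44, PP2C47, PP2C48, PP2C58, PP2C69 and PP2C75 and the genes at the floor were named after their values had been seen. Alternatives were other floors, an offset, other scalings, other probe set choices and fold thresholds of 1.5 and 3. Comparisons of promoter and protein sequence were not run.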

Additional observations from a re-analysis of the deposited data

Results flagged for a closer look

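For 7 genes outside clade A the change after PEG was negative in RNAi-9 and positive in WT, which drew attention to them. This is 14.9% of the 47 genes, against 6.41% of all genes and 7.84% of those above the floor on all arrays. All 7 are among the 43 genes outside clade A above the floor on all arrays. No PP2C gene had the opposite pattern, against 6.02% of all genes. The difference between the genotypes was not tested, as each condition has 1 array. PP2C26 had the largest gap, with a difference of changes of −1.26, from −0.31 in RNAi-9 and 0.95 in WT. PP2C29 differed by −0.54, from −0.25 in RNAi-9 and 0.28 in WT. PP2C70 differed by −0.43, PP2C14 by −0.35 and PP2C10 by −0.35. PP2C54 differed by −0.29 and PP2C58 by −0.29. In each of these genes both changes were under 2-fold, and for PP2C14 the difference was 0.37 with the deposited signals and no floor. There PP2C14 changed by 0.03 in RNAi-9 and −0.34 in WT. Of the 2 probe sets of PP2C14, 1 was at the floor on all 4 arrays. The other changed by −0.23 in RNAi-9 and 0.48 in WT, a difference of −0.71. The changes in WT were 0.07 for PP2C54 and 0.01 for PP2C58. Scaled to the median of all probe sets, they were −0.02 for PP2C54 and −0.08 for PP2C58. The change of PP2C10 in RNAi-9, −0.09, turned to 0.05 with probe sets of at least 8 as the scale. PP2C26, PP2C29 and PP2C70 kept both signs under every alternative floor, offset, scaling and probe set choice.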

How the results depend on the processing

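Of the clade A genes, 6 rose over 2-fold in both genotypes, and 7 without a floor and with the offset of 32, where PP2C51 joined. The other alternatives gave 6. No called value of a PP2C gene turned its sign. With signals as deposited and no floor, 6 PP2C genes differed over 2-fold between RNAi-9 and WT at 0 h, 5 at 2 h, and 8 in their change after PEG. With the hybridization controls as the scale, 5 genes fell in RNAi-9, 1 differed between the genotypes at 0 h and 3 at 2 h. Scaled to the median of all probe sets, 1 differed at 0 h, as with the highest probe set of each gene. With probe sets of at least 8 as the scale, 1 gene fell in RNAi-9. Without probe sets shared between transcripts 1 gene fell there too, and 53 genes were left, since PP2C12 and PP2C21 had no other probe set. At 1.5-fold, 23 genes rose in WT and 10 outside clade A in both genotypes, 7 fell in RNAi-9 and 7 in WT, 9 differed between the genotypes at 0 h, 5 at 2 h and 7 in their change. At 3-fold, 3 outside clade A rose in both, 1 fell in RNAi-9 and 0 in WT, 0 differed at 2 h and 0 in their change. The cause was not tested. No paired analysis was possible because each condition has 1 array. A fit of time with genotype as a block, which would take the genotypes as replicates, was not run. PEG and time share their arrays, and no array repeats a condition, so differences near 2-fold have no error to be read against.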
